A study of Mus musculus with 12 samples.

Results

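The genes described here make bile acids from cholesterol in the liver and sense them through the farnesoid X receptor (FXR). They were the 10 genes *Cyp7a1*, *Cyp7b1*, *Cyp27a1*, *Cyp8b1*, *Slc27a5*, *Baat*, *Nr1h4*, *Nr0b2*, *Fgfr4* and *Klb*, picked by gene symbol from a table of 45777 genes, and all 10 passed the filter on low counts in every comparison. RNA was sequenced from whole livers of 12 male C57BL/6 mice, 3 per group. The study used these livers to ask how acetaminophen (APAP) overdose changes transcription with and without Gα12, a G protein subunit encoded by *Gna12*. The groups were WT and Gα12-/- mice, each given either vehicle or APAP. Per the labels all mice were 10 to 12 weeks old, and per the study's methods APAP was a single intraperitoneal dose of 300 mg/kg after an overnight fast, WT mice were age-matched littermates, and livers were taken at 6 h. The sources used here do not give the allele behind the Gα12-/- label. Each liver stood for 1 mouse, so error is the spread between 3 mice.

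Bile acids are made from cholesterol along a pair of routes. The classic route begins with cholesterol 7α-hydroxylase (*Cyp7a1*), its rate-limiting enzyme, and the acidic route begins with sterol 27-hydroxylase (*Cyp27a1*) followed by oxysterol 7α-hydroxylase (*Cyp7b1*). FXR (*Nr1h4*) binds bile acids and switches on *Nr0b2*, which encodes the small heterodimer partner (SHP), a repressor of *Cyp7a1* and *Cyp8b1*. A second brake comes from the gut hormone FGF15, which reaches hepatocytes through the receptor FGFR4 and its co-receptor β-Klotho (*Klb*).

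Total counts ran from 49737950 to 69566079 per liver. *Gna12* reads were present under the KO label, at 54.6 to 67.2 CPM (counts scaled to library size) in its vehicle livers. WT vehicle livers held 34.8 to 66.7 CPM. The log2 fold change (log2FC) was -0.19 for WT against the KO label (adjusted p = 0.878, edgeR's quasi-likelihood test). The paper typed WT littermates and KO mice by PCR of tail DNA, and measured *Gna12* in their livers by qRT-PCR. With the allele not given, a gene-level count cannot settle the genotype. The libraries labelled KO are therefore named below by their label. WT APAP liver 1 stood apart, with erythroid markers summing to 13490 CPM against 219 to 612 CPM in the other livers, neutrophil markers summing to 125 CPM against at most 20.7 CPM, and the lowest normalisation factor, 0.750. WT vehicle liver 2 stood apart from the other WT vehicle livers in several of the genes below, and its neutrophil markers summed to 17.8 CPM against 1.16 and 1.95 CPM in the other WT vehicle livers. The 5 hepatocyte markers, *Alb* among them, were highly expressed in every liver, with none called in APAP against vehicle.

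The members spanned a wide range of levels in WT vehicle livers. On the TPM scale, which corrects for transcript length and so allows genes to be set side by side, *Slc27a5* (bile acyl-CoA ligase) had the highest mean, 474 ± 54.6 TPM (SD, n = 3). *Cyp8b1*, the 12α-hydroxylase that sets how much cholic acid is made, followed at 434 ± 196 TPM, and *Cyp27a1* at 382 ± 19.3 TPM, and the ranges of these 3 neighbours overlapped. *Baat*, which joins bile acids to taurine or glycine, stood at 162 ± 37.4 TPM, *Cyp7b1* at 149 ± 70.3 TPM and *Nr1h4* at 108 ± 21.3 TPM, again with overlap between neighbours. *Nr0b2* at 39.0 ± 10.6 TPM overlapped neither *Nr1h4* above it nor *Cyp7a1* below it. The rate-limiting enzyme was low, *Cyp7a1* at 16.4 ± 12.6 TPM, and it overlapped *Fgfr4* at 12.1 ± 2.65 TPM, which in turn overlapped *Klb* at 9.88 ± 4.78 TPM.

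Spread between mice was uneven across the members. *Cyp7a1* varied most, by 10.3-fold between the highest and the lowest of the 6 vehicle livers, while *Slc27a5* varied by 1.26-fold and *Cyp27a1* by 1.33-fold. Among WT vehicle livers the coefficient of variation in CPM was 70.4% for *Cyp7a1*, 47.7% for *Cyp7b1* and 41.3% for *Cyp8b1*, against 4.79% for *Cyp27a1*. WT vehicle liver 2 held the lowest value of its group in 4 members and the highest in 5. The plot of CPM by liver gives all 12 values for each member, on a scale normalised over all 12 livers by the trimmed mean of M values (TMM).

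**Figure D1:**
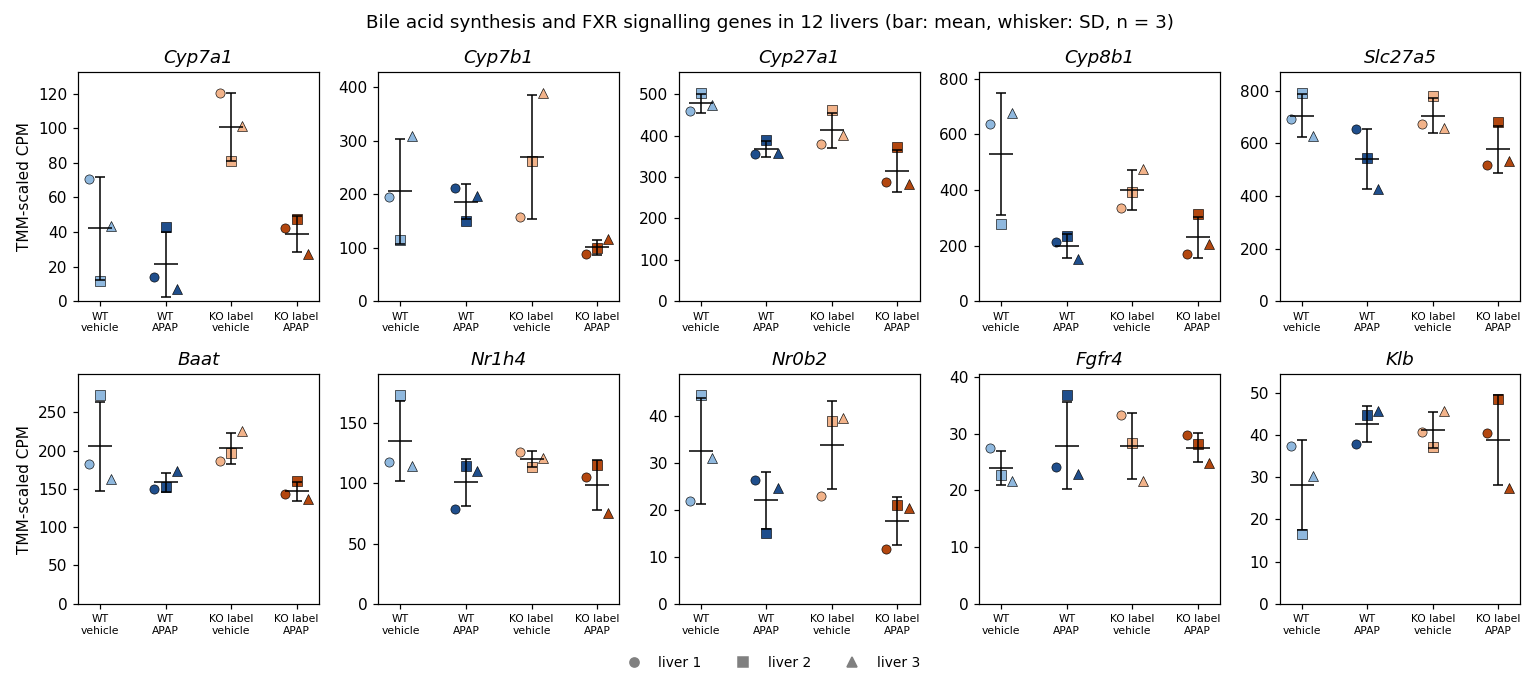
Each panel plots 1 gene's TMM-scaled CPM (linear axis from 0) in the 12 livers, by group, with marker shape for liver number, and a bar and whiskers for the mean and SD of 3 livers. Cyp7a1 lay between 80.8 and 120 CPM in vehicle livers labelled KO and between 27.0 and 47.2 CPM in APAP livers labelled KO, while its WT groups overlapped.

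APAP was first compared with vehicle over all 12 livers, with genotype label as a term. *Cyp8b1*, *Cyp27a1*, *Baat* and *Nr0b2* fell, and no member rose. These 4 of 10 members stand beside 11.4% of all 16509 tested genes called lower and 25.4% called in either direction. The median log2FC of the 10 members was -0.40 against 0.01 over all tested genes, with 8 of 10 members and 8112 of 16509 tested genes below 0. In none of the members did the 6 APAP livers lie wholly apart from the 6 vehicle livers, a separation seen in 12.5% of tested genes. In bulk liver RNA, fewer cells of a type and less RNA per cell cannot be told apart.

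Within WT livers, no member passed the test in APAP against vehicle, where 2.05% of 15693 tested genes did. By edgeR, 8 of 10 members had a log2FC below 0 and 1 had an unadjusted p under 0.05. Among all tested genes, 7467 were below 0 and 2817 had an unadjusted p under 0.05 by the same test. In CPM, APAP and vehicle livers did not overlap for 3 members with lower values (*Cyp8b1*, *Cyp27a1*, *Nr1h4*) and 1 with higher values (*Klb*). Such a separation was seen in 24.9% of all tested genes. In TPM each of these members overlapped, with *Cyp8b1* at 208 to 566 TPM with vehicle and 109 to 223 TPM with APAP. *Nr1h4* cleared by little even in CPM, with APAP livers up to 114.4 CPM and vehicle livers from 114.7 CPM. Within livers labelled KO, 5 of 10 members fell (*Cyp7a1*, *Cyp7b1*, *Cyp8b1*, *Baat* and *Nr0b2*), beside 9.6% of 15665 tested genes called lower and 22.6% called in either direction. There all 10 members had a log2FC below 0, as did 8089 of 15665 tested genes. In CPM, 6 members had groups that did not overlap, against 42.8% of tested genes. In TPM *Cyp27a1* overlapped, at 272 to 392 TPM with vehicle and 272 to 345 TPM with APAP, while the 5 members called lower did not. The median over members was -0.37 in WT livers and -0.42 in livers labelled KO.

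Promoter sequence is shown for *Nr0b2* and *Cyp8b1*, which fell over all livers and whose windows end at the base before the annotated gene. RefSeq's promoter table (GRCm38.p6) held 6 of the 10 members, and the 250 bases before the transcript start given there are printed 5′ to 3′ on the gene's own strand. Capitals mark TCAAGG, a part of the extended half-site read by LRH-1, and TATAAA, the TATA box. A match to TCAAGG is thus not a match to the whole LRH-1 site.
Nr0b2, chr4:133553126-133553375, plus strand: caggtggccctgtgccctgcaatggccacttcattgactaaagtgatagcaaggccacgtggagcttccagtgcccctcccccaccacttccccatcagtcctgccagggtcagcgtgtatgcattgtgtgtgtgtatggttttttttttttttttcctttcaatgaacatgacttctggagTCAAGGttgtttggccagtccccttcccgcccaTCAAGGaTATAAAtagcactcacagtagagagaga
Cyp8b1, chr9:121916306-121916555, minus strand: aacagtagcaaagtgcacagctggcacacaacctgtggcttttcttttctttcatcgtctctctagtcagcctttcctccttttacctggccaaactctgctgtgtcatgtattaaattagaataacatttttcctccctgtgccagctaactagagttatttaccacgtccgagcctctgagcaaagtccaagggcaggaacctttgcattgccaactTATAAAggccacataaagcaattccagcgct
The *Nr0b2* flank holds TCAAGG with its first base 68 and 35 bases before the start and TATAAA at 28, and the *Cyp8b1* flank holds TATAAA at 31. Both strands were searched, with motifs chosen after the sequences were seen, and no 2 matches overlap. TCAAGG occurred in 12.5% and TATAAA in 12.4% of 32851 mouse promoters of this length, the nuclear receptor half-site AGGTCA in 14% (among the 6 members, only in *Nr1h4*, at 214 bases before a start that lies inside the annotated gene), and the inverted repeat AGGTCANTGACCT in 0.00609% and in 0 of the 6 members. *Nr5a2*, which encodes LRH-1 and was named after its values were seen, fell by 0.41 on the log2 scale over all livers (adjusted p = 0.0254 from edgeR). Whether LRH-1 acts at these flanks was not tested.

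*Cyp7a1* (gene ID 13122, chromosome 4 from 6265612 to 6275632, GRCm38) catalyses the first step of the classic route. In WT vehicle livers it was at 70.8, 11.7 and 43.6 CPM, and in WT APAP livers at 13.8, 42.8 and 7.11 CPM. WT vehicle liver 2 was as low as the APAP livers, and WT APAP liver 2 was as high as a vehicle liver, so the WT groups overlapped. In vehicle livers labelled KO *Cyp7a1* was at 120, 80.8 and 101 CPM, and in APAP livers labelled KO at 42.0, 47.2 and 27.0 CPM, with no overlap. The log2FC was -1.37 (SE 0.23, adjusted p = 0.00573, edgeR's quasi-likelihood test) under the KO label and -0.98 (SE 0.77, adjusted p = 0.543) in WT livers. Over all 12 livers it was -1.18 (95% interval -2.13 to -0.23, adjusted p = 0.0656 from edgeR), short of the threshold of 0.05. When 1 liver was left out, this value ran from -1.64 without WT APAP liver 2 to -0.94 without WT vehicle liver 1, and the fits without WT APAP liver 2 (adjusted p = 0.00897, edgeR) and without WT vehicle liver 2 (-1.40, adjusted p = 0.014) passed the threshold. The WT value ran from -2.01 without WT APAP liver 2 to -0.38 without WT vehicle liver 1 and never passed.

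*Cyp7b1* (gene ID 13123, chromosome 3 from 18071944 to 18243890) 7α-hydroxylates oxysterols in the acidic route. It was at 194, 114 and 309 CPM in WT vehicle livers and at 212, 149 and 196 CPM in WT APAP livers, which lay inside the vehicle range. In livers labelled KO it was at 158, 263 and 389 CPM with vehicle and 87.7, 99.2 and 115 CPM with APAP, and every APAP value was below every vehicle value. Its log2FC was -1.41 (SE 0.30, adjusted p = 0.0125, edgeR's quasi-likelihood test) under the KO label and -0.14 (SE 0.36, adjusted p = 0.871) in WT livers. The WT value of *Cyp7b1* turned direction when 1 liver was left out, from -0.43 without WT vehicle liver 2 to 0.26 without WT vehicle liver 3. *Cyp27a1* (gene ID 104086, chromosome 1 from 74713148 to 74737897), the mitochondrial enzyme before it in that route, ranged from 379 to 504 CPM with a median of 460 CPM in the 6 vehicle livers and from 282 to 390 CPM with a median of 357 CPM in the 6 APAP livers. Its log2FC over all livers was -0.39 (95% interval -0.61 to -0.16, adjusted p = 0.0163 from edgeR), and the estimates were alike in size under both labels, -0.37 in WT livers and -0.39 in livers labelled KO, neither past the threshold alone.

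*Cyp8b1* (gene ID 13124, chromosome 9 from 121914356 to 121916305) had the lowest p among the members over all 12 livers. WT vehicle livers gave 638, 278 and 675 CPM and WT APAP livers 215, 233 and 150 CPM. The groups did not overlap in CPM but did in TPM, with vehicle liver 2 close to the APAP values. Vehicle livers labelled KO gave 334, 392 and 476 CPM and APAP livers labelled KO 168, 313 and 207 CPM, again without overlap. Over all livers *Cyp8b1* fell to 0.464 times the vehicle level (log2FC -1.11, 95% interval -1.64 to -0.58, adjusted p = 0.00542 from edgeR). Within WT livers the log2FC was -1.40 (SE 0.36, adjusted p = 0.10 from edgeR), and without WT vehicle liver 2 it was -1.72 with an adjusted p of 0.0378. Within livers labelled KO it was -0.80 (SE 0.24, adjusted p = 0.0481 from edgeR).

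**Figure D2:**
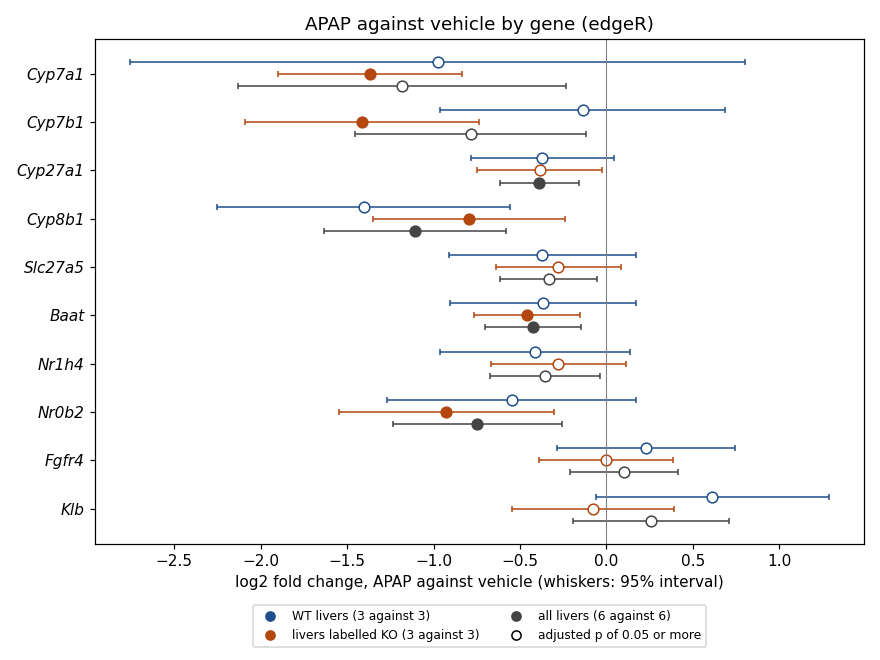
Points give the log2 fold change of APAP against vehicle for each gene in WT livers, in livers labelled KO and in all livers, with 95% intervals as whiskers, and filled points have an adjusted p under 0.05. The intervals of Fgfr4 and Klb include 0 in all 3 fits, and that of Cyp7a1 is wider in WT livers (-2.76 to 0.80) than in livers labelled KO (-1.90 to -0.84).

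The next members activate the finished bile acid and conjugate it. *Baat* (gene ID 12012, chromosome 4 from 49489416 to 49507915) ranged from 163 to 272 CPM with a median of 192 CPM in vehicle livers and from 137 to 173 CPM with a median of 151 CPM in APAP livers. Its log2FC was -0.42 (95% interval -0.70 to -0.14, adjusted p = 0.0291 from edgeR) over all livers. *Slc27a5* (gene ID 26459, chromosome 7 from 12988346 to 12998192) ranged from 630 to 793 CPM with vehicle and from 425 to 680 CPM with APAP, a log2FC of -0.33 (95% interval -0.62 to -0.05, adjusted p = 0.0787 from edgeR).

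On the sensing side, *Nr0b2* (gene ID 23957, chromosome 4 from 133553376 to 133556686) encodes the repressor that FXR induces. It was at 21.9, 44.3 and 31.1 CPM in WT vehicle livers, where liver 2 was the highest, and at 26.3, 15.1 and 24.7 CPM in WT APAP livers, which overlapped them. In livers labelled KO it was at 22.9, 38.9 and 39.5 CPM with vehicle and at 11.7, 20.9 and 20.3 CPM with APAP, with no overlap. *Nr0b2* fell by 0.75 on the log2 scale over all livers (95% interval -1.24 to -0.26, adjusted p = 0.0281 from edgeR), and by 0.93 in livers labelled KO (adjusted p = 0.0423 from edgeR). In WT livers its log2FC was -0.55 (adjusted p = 0.398 from edgeR). Within livers labelled KO, the repressor and its target enzymes *Cyp7a1* and *Cyp8b1* were all called lower. Over 15 alternative fits there, those without 1 liver included, *Cyp7a1* was called in 14, *Nr0b2* in 7 and *Cyp8b1* in 7.

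*Nr1h4* (gene ID 20186, chromosome 10 from 89454234 to 89533645), the bile acid receptor itself, was not called in any comparison. It ran from 114 to 173 CPM in vehicle livers, the highest being WT vehicle liver 2, and from 75.2 to 116 CPM in APAP livers, a log2FC of -0.35 (95% interval -0.67 to -0.04, adjusted p = 0.0972 from edgeR). *Fgfr4* (gene ID 14186, chromosome 13 from 55152818 to 55168759) ran from 21.7 to 33.3 CPM in vehicle and from 22.8 to 36.8 CPM in APAP livers, and its interval of -0.21 to 0.42 on the log2 scale leaves room for a modest difference either way, with the log2FC of 0.10 at -0.01 without WT APAP liver 2. *Klb* (gene ID 83379, chromosome 5 from 65348411 to 65386957) was at 37.4, 16.5 and 30.3 CPM in WT vehicle livers and 37.8, 44.6 and 45.6 CPM in WT APAP livers, which just cleared them. The WT log2FC of *Klb* was 0.61 (SE 0.29, adjusted p = 0.321 from edgeR), and without WT vehicle liver 2 it was 0.34. In livers labelled KO the log2FC of *Klb* was -0.08 (95% interval -0.55 to 0.39), and it turned to 0.12 without APAP liver 3.

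Several of these calls were lost when 1 liver was left out, which also leaves fewer livers to test. Under the KO label, 1995 to 3368 of all tested genes were called with 1 liver left out, against 3538 with every liver. Within livers labelled KO, *Cyp7a1* and *Cyp7b1* passed in each of the 6 fits that left out 1 liver, but the count of members called dropped from 5 to 2 without APAP liver 1, APAP liver 3, vehicle liver 2 or vehicle liver 3, to 3 without vehicle liver 1, and rose to 6 without APAP liver 2. When all 12 livers shared an estimate of the spread, 1 member was called in that comparison, *Cyp7b1*. Over all 12 livers, *Cyp8b1* and *Cyp27a1* passed in each of the 12 fits that left out 1 liver, while 2 members remained without APAP liver 1, APAP liver 3, vehicle liver 2 or vehicle liver 3 labelled KO. Without both WT APAP liver 1 and WT vehicle liver 2, a choice made after seeing the data, 7 members were called lower over all livers, adding *Cyp7a1* (log2FC -1.30), *Cyp7b1* (-1.06) and *Slc27a5* (-0.34).

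Markers of the zones of the liver lobule moved alongside. The 6 pericentral markers, a list that includes *Glul* and *Cyp2e1*, were all called lower over all livers (median log2FC -1.40), and their summed level ran from 9228 to 10638 CPM in vehicle livers and from 3650 to 6059 CPM in APAP livers. *Cyp2e1* made up most of this sum, at 7510 to 8648 CPM in vehicle livers and 3288 to 5348 CPM in APAP livers. WT vehicle liver 2 had the highest sum of all, 10638 CPM. The 6 periportal markers had a median log2FC of -0.47 with 3 called lower. Whether the zones had a part in the fall of the bile acid genes was not tested.

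Ratios within a liver set aside differences in total RNA between livers. *Cyp7a1* TPM was 19.0%, 5.33% and 7.35% of *Cyp7b1* TPM in WT vehicle livers and 3.40%, 15% and 1.88% in WT APAP livers. In livers labelled KO it was 39.7%, 16% and 13.6% with vehicle and 25.0%, 24.7% and 12.2% with APAP, where both genes fell. The groups overlapped under each label. *Cyp8b1* TPM was 19.3 to 51.1 times *Cyp7a1* TPM in WT vehicle livers and 5.94 to 10.4 times in vehicle livers labelled KO, groups that did not overlap. With APAP the same ratio was 11.7 to 45.3 in WT livers and 8.55 to 16.4 in livers labelled KO, which overlapped. These ratios were not tested, and no share over other gene pairs stands beside them. In vehicle livers *Cyp8b1* TPM overlapped between the labels, while *Cyp7a1* TPM did not (4.07 to 29.3 in WT livers, 32.2 to 56.5 under the KO label).

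**Figure D3:**
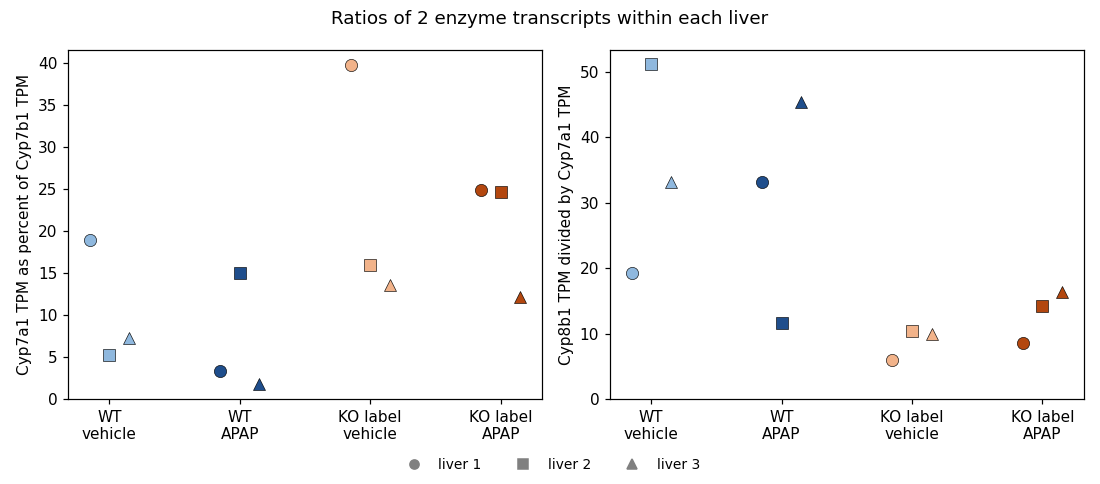
The left panel plots Cyp7a1 TPM as a percent of Cyp7b1 TPM and the right panel Cyp8b1 TPM divided by Cyp7a1 TPM, 1 point per liver with marker shape for liver number. The vehicle livers labelled KO sit at 5.94 to 10.4 in the right panel, all below the WT vehicle livers at 19.3 to 51.1. The ratios were not tested.

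The genotype labels were then compared within a treatment. With vehicle, no member was called, and 0.0262% of 15262 tested genes were (4 genes). *Cyp7a1* was the only member whose groups did not overlap, a separation seen in 14% of tested genes, at 11.7 to 70.8 CPM in WT livers and 80.8 to 120 CPM in livers labelled KO. Its log2FC, WT against KO label, was -1.26 (95% interval -2.51 to -0.01, unadjusted p = 0.0484, adjusted p = 0.654 from edgeR), and without WT vehicle liver 2 it was -0.83. With APAP, no member was called either, beside 0.0309% of 16174 tested genes (5 genes). *Cyp7b1* was the only member without overlap in CPM, a separation seen in 8.73% of tested genes. It was at 149 to 212 CPM in WT livers and 87.7 to 115 CPM in livers labelled KO. In TPM it overlapped, at 96.9 to 148 TPM in WT livers and 79.5 to 100 TPM in livers labelled KO. WT APAP liver 1 was the highest of its group in CPM and the lowest in TPM. The log2FC of *Cyp7b1* was 0.90 (95% interval 0.43 to 1.37, unadjusted p = 0.00229, adjusted p = 0.958 from edgeR). The Wald test of DESeq2 gave an adjusted p of 0.0424, past the threshold.

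The last comparison asked whether the APAP response itself differed between the labels. No member passed, and of 16509 tested genes 0% did, with 848 at an unadjusted p under 0.05 by edgeR and 9 called by DESeq2. With no difference at all, about as many genes as those 848 would pass 0.05. *Cyp7b1* had the largest difference among the members, 1.27 on the log2 scale (95% interval 0.17 to 2.38, unadjusted p = 0.0276, adjusted p = 0.872 from edgeR), positive since its log2FC was -1.41 under the KO label and -0.14 in WT livers. When 1 liver was left out, the *Cyp7b1* difference ran from 0.91 to 1.69. For *Cyp7a1* the difference was 0.40 (95% interval -1.55 to 2.34, turning to -0.61 without WT APAP liver 2 and rising to 1.01 without WT vehicle liver 1) and for *Cyp8b1* -0.61 (95% interval -1.63 to 0.41). So the 5 calls under the KO label against 0 in WT livers are not shown to be a difference between the labels.

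Other genes of the pathway were read from lists drawn up around the members. Of 14 enzymes of the sterol ring and side chain, 3 fell and 1 rose over all livers, with a median log2FC of -0.27, in a fit that called 11.4% of all tested genes lower and 25.4% in either direction. *Akr1d1*, the Δ4-3-oxosteroid 5β-reductase, fell by 1.75 on the log2 scale, from 111 to 142 CPM in vehicle livers to 23.8 to 49.9 CPM in APAP livers (adjusted p = 3.6e-05 from edgeR), and it also passed in WT livers alone (-1.78, adjusted p = 0.0264). *Slc27a2*, a very long chain acyl-CoA synthetase that also activates bile acids, fell by 0.49. *Ch25h*, cholesterol 25-hydroxylase, rose by 4.69 from at most 11 counts in any vehicle liver to 49 to 427 counts in APAP livers, the highest being WT APAP liver 1.

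Of 16 FXR partners and regulators of *Cyp7a1* transcription, 5 fell and 2 rose, with a median of -0.34, beside the same 11.4% and 25.4% of all tested genes. *Nr1d1*, which encodes the circadian repressor REV-ERBα, rose by 2.50 on the log2 scale (27.0 to 67.5 CPM with vehicle, 198 to 408 CPM with APAP, adjusted p = 3.6e-05 from edgeR), and it passed under both labels. *Nr1i3*, encoding the constitutive androstane receptor, fell by 1.18, and *Klf15*, a regulator of fasting metabolism, fell by 1.38. *Dbp* and *Nfil3*, a clock-controlled activator and repressor named after their values were seen, set WT vehicle liver 2 apart again. *Dbp* was at 109, 21.3 and 86.1 CPM and *Nfil3* at 19.1, 95.8 and 12.8 CPM in the WT vehicle livers, against 13.2 to 35.8 CPM and 61.1 to 93.5 CPM in the 6 APAP livers. In that liver, *Cyp7a1*, *Dbp* and *Nfil3* were thus near the levels seen after APAP, while *Akr1d1* (134 CPM) and *Nr1d1* (27.0 CPM) were not. Of the other members there, *Cyp27a1* (504 CPM), *Slc27a5* (793 CPM), *Baat* (272 CPM), *Nr1h4* (173 CPM) and *Nr0b2* (44.3 CPM) lay above every APAP liver. *Klb* (16.5 CPM) and *Fgfr4* (22.6 CPM) lay below every APAP liver, and *Cyp7b1* and *Cyp8b1* lay inside the APAP range.

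Of 12 genes of bile acid efflux and uptake, 10 were tested, 5 fell and 1 rose, with a median of -0.32, again beside 11.4% called lower and 25.4% called either way among all tested genes. Those with the smallest p were basolateral uptake carriers, *Slc10a1* (encoding NTCP) from 538 to 723 CPM in vehicle livers to 289 to 396 CPM in APAP livers (log2FC -0.88, adjusted p = 0.000316 from edgeR), *Slco1b2* by 0.97 and *Slco1a4* by 1.08 on the log2 scale. *Abcb11*, the canalicular bile salt export pump and an FXR target, named after its values were seen, had a log2FC of -0.13 (95% interval -0.43 to 0.16) over all livers. It fell under the KO label (-0.47, adjusted p = 0.0424 from edgeR), where WT livers gave 0.23 (adjusted p = 0.536). The difference between the labels had an unadjusted p of 0.00526 and an adjusted p of 0.872 from edgeR. With vehicle it was at 143 to 169 CPM in WT livers and 213 to 254 CPM under the KO label. With APAP it was at 161 to 190 CPM and 149 to 182 CPM.

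Of 9 genes of the FGF receptor pathway, 7 were tested, and *Gab1*, an adaptor downstream of receptor tyrosine kinases, was the 1 called, lower by a log2FC of -0.62 (adjusted p = 0.00851 from edgeR). *Fgf15*, a gut hormone, was counted 0 times in every liver, which allows up to 3 counts or 0.0663 CPM in the liver with the highest such limit. Of 4 other bile acid receptors, *S1pr2* alone passed the filter and was not called (log2FC -0.11), and *Gpbar1* had at most 4 counts in a liver.

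**Figure D4:**
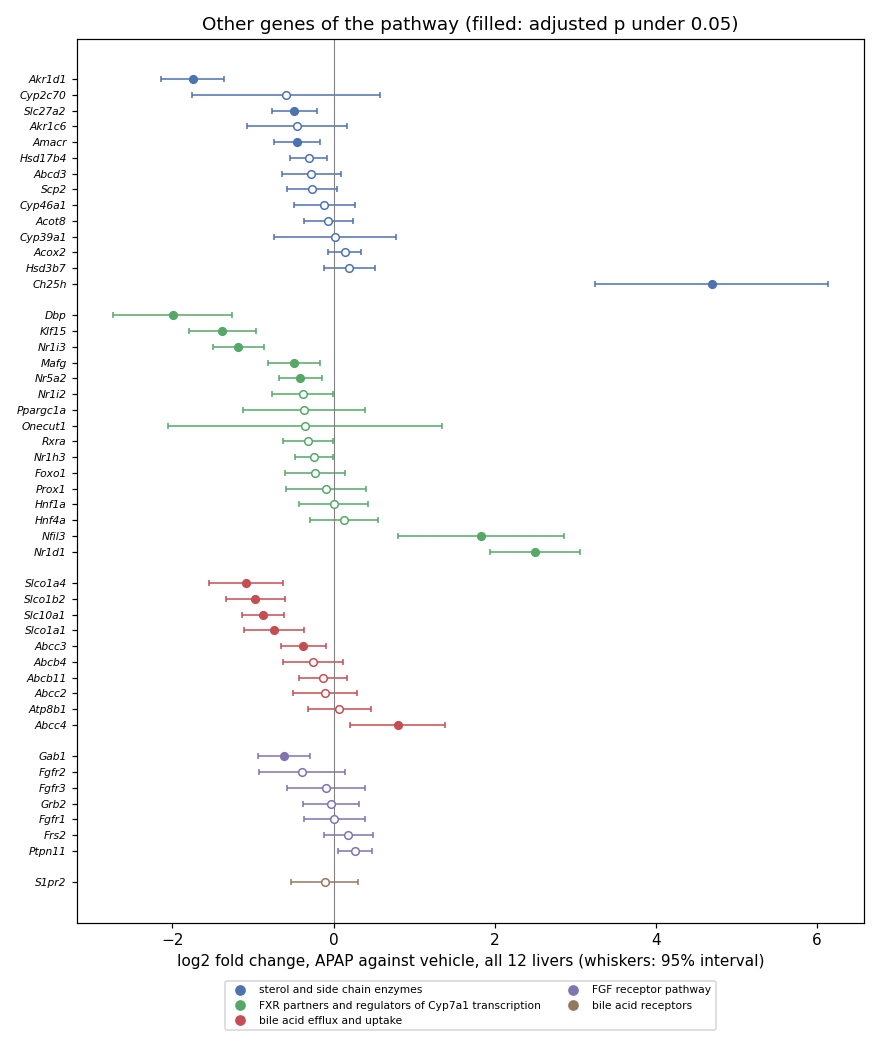
Each point is the log2 fold change of APAP against vehicle over all 12 livers for a tested gene of the 5 pathway lists, coloured by list and sorted within it, with 95% intervals as whiskers and filled points for an adjusted p under 0.05. Ch25h (4.69) and Nr1d1 (2.50) lie farthest to the right, and Dbp and Akr1d1 (-1.75) farthest to the left.

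The genes most like *Cyp7a1* over the 12 livers, by Pearson's r of log2 CPM among 10911 genes, were *Kdm1b* (r = 0.93, 12.1 to 29.2 CPM), *Flvcr2* (r = 0.92) and *Prkd3* (r = 0.92). Those most like *Nr0b2* were *Ilk* (r = 0.91, 42.1 to 56.0 CPM), *Erlec1* (r = 0.88) and *Cpsf3* (r = 0.88). These values are a description over livers that share treatment groups, libraries and depth.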

How the data were processed

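Poly-A RNA libraries of 12 livers were made with a stranded kit and read in pairs. Per the labels, the authors used FastQC 0.11.7, Trimmomatic 0.38, HISAT2 2.1.0, Bowtie2 2.3.4.1 and StringTie 2.1.3b with mm10 (GRCm38). The authors deposited raw read counts per gene, which were tested as they stood. The deposited FPKM values, scaled by the authors to gene length and depth, were not read. The deposited TPM values, scaled by the authors to length and to a fixed sum per library, were used for levels between genes and ratios. The way reads were assigned to genes is not given in the sources used here.

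Counts were filtered with filterByExpr, TMM-normalised and tested with edgeR 4.0.16 (quasi-likelihood test, Benjamini-Hochberg over all tested genes, threshold 0.05, R 4.3.3). Each pair of groups was fitted on its own livers. The interaction used all 12 livers in 4 groups, as the APAP effect in WT minus that under the KO label, and APAP against vehicle over all livers used an additive genotype label. Intervals are at 95%. Scripts were tested on simulated data. Total counts were 49737950 to 69566079 per liver, and the least counted member value was 447 (*Cyp7a1*, WT APAP liver 3). Alternatives were DESeq2 1.42.0, limma 3.58.1 on log2(TPM + 1) and log2(TPM + 0.1), no filter, another scaling, a replicate block, 1 fit for all livers and leaving out livers. Replicate libraries within a group differed by more than sampling noise. The members and gene lists were chosen with earlier results of these data known. Named genes were all members, at most 3 genes per pathway list with the smallest p among those called over all livers (1 where none was), the 3 genes most like *Cyp7a1* and *Nr0b2* among tested genes with a mean log2 CPM of at least 1, and *Gna12*. *Nr5a2*, *Dbp*, *Nfil3* and *Abcb11* were named outside this rule, after their values were seen.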

Additional observations from a re-analysis of the deposited data

How the results depend on the processing

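No log2 fold change of a member that was called changed sign under any alternative. Of the comparisons of 1 member under 1 alternative, 16 gained a call and 41 lost one. The rest kept their side of the threshold, as 29 uncalled values that moved by at least their standard error and 944 others. In WT livers, 0 members were called as reported and 1 (*Cyp8b1*) under the DESeq2 Wald test, with all 12 livers in 1 fit, and without both WT APAP liver 1 and WT vehicle liver 2, with 0 to 1 when 1 liver was left out. In livers labelled KO, 5 members were called as reported, 3 with no filter, 3 with limma on log2(TPM + 0.1), 2 with limma on log2(TPM + 1) and no filter, 1 with all 12 livers in 1 fit, and 2 to 6 when 1 liver was left out. For WT APAP against APAP livers labelled KO, 0 became 1 (*Cyp7b1*) under DESeq2. Over all livers, 4 became 7 without both livers, a choice made after seeing the data, and 2 to 5 when 1 liver was left out. No member was called between the vehicle groups or for the interaction under any alternative. The causes were not tested.

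Counts over all genes moved more. In WT livers 322 genes became 62 with the replicate block and 1523 with all livers in 1 fit. In livers labelled KO 3538 became 2249 with all livers in 1 fit. Between the vehicle groups DESeq2 called 137 genes and between the APAP groups 29. Replicate numbers did not pair the livers, since 1 of 18 same-numbered pairs had a correlation of deviations over 0.1 (median -0.0332). With the replicate block, 0 members were called in WT livers, 4 in livers labelled KO and 4 over all livers.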
